A study of Homo sapiens with 16 samples.

Results

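The regions described here were distal stretches of chromatin that carried H3K27ac in every library of the study and SMAD3 in none. H3K27ac is acetylation of lysine 27 of histone H3 and SMAD3 is a transcription factor that TGF-beta activates. The cells were H69, a virally transformed human cholangiocyte line, which stands in for the epithelium of the bile ducts. They were treated with recombinant TGF-beta at 10 ng/ml for 16 h or with vehicle, and peak lists were deposited for H3K27ac, H3K9ac and SMAD3 with 2 TGF-beta and 2 vehicle libraries each. All libraries came from this 1 line, at passages the labels give as 30 to 32, or 30 to 33 for 1 SMAD3 library. Nothing in the labels ties replicates to separate cultures, and p-values therefore measure the spread between these libraries alone, which may be technical. Merging the H3K27ac peaks of the 4 libraries gave 104387 regions, of which 43717 were called in all 4. Of these, 19191 lay more than 1 kb from both ends of every protein-coding gene of the RefSeq annotation and overlapped no SMAD3 peak, and they are called the SMAD3-free distal regions below. They were 18.4% of all merged regions and 43.9% of those called in all 4 libraries. For comparison, 8349 stable distal regions overlapped a SMAD3 peak and 16177 stable regions lay at gene ends. The regions were chosen by these H3K27ac and SMAD3 calls, so values of both are given as a description without a test.

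H3K27ac marks active promoters and enhancers, and away from gene starts it is the mark most used to map active enhancers. H3K9ac, acetylation of lysine 9 of the same histone, is strongest at active promoters and is also found at part of the active enhancers. TGF-beta binds a pair of receptor kinases that phosphorylate SMAD2 and SMAD3, which join SMAD4 and bind DNA mostly beside other factors, such as AP-1, at enhancers that are already open. In cholangiocytes this pathway is known for extracellular matrix production and for loss of epithelial features.

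No genome sequence was used here, so the sequences shown are the transcription start windows of RefSeq that lay whole inside a SMAD3-free distal region. Each window runs from 250 bases before to 50 bases after an annotated start, in GRCh38.p14. Such windows exist in regions far from gene ends because RefSeq lists starts inside genes and starts of long noncoding RNAs. Of 34789 windows, 238 lay inside SMAD3-free distal regions, 91 of them from protein-coding genes and 147 from long noncoding RNAs. The 6 below were picked after their values were seen, to show a strongly marked and a weakly marked start inside SMAD3 itself, a pair of starts with AP-1 letters, and a start each in a region where H3K9ac rose and fell. Capitals mark matches to the motifs AP-1 TGANTCA, SMAD CAGACA and TEAD GGAATG, searched on both strands. Letters run 5′ to 3′ on the strand of the transcript.
SMAD3 window with H3K9ac in all 4 libraries: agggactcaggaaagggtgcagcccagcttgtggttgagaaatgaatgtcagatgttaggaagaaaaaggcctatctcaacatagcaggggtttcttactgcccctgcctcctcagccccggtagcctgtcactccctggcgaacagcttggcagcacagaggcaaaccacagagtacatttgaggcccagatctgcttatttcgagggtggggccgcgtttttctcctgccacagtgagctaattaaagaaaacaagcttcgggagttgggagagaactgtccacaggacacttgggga
SMAD3 window without H3K9ac: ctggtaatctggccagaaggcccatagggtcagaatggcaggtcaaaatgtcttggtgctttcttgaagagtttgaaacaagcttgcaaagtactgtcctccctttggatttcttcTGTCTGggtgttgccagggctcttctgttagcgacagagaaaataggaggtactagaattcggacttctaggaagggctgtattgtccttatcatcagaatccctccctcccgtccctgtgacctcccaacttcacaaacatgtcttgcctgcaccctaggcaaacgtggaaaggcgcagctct
ACVR1 window: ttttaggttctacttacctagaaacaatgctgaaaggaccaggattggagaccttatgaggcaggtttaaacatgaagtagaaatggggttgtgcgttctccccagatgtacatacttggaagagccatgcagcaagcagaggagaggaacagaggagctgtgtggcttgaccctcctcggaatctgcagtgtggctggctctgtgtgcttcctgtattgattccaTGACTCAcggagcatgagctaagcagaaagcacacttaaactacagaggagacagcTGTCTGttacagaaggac
CD59 window: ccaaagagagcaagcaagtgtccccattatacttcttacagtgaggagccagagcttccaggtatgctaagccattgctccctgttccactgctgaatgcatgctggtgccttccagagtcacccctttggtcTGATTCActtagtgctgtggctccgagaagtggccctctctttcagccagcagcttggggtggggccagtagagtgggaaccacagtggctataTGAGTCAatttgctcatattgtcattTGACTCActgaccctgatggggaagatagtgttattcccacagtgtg
LIMS1 window: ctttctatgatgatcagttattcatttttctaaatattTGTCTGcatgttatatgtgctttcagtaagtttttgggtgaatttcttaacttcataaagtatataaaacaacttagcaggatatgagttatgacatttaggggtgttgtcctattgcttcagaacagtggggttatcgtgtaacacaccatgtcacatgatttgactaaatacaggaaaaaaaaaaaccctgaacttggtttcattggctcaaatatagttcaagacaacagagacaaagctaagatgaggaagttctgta
BCAR3 window: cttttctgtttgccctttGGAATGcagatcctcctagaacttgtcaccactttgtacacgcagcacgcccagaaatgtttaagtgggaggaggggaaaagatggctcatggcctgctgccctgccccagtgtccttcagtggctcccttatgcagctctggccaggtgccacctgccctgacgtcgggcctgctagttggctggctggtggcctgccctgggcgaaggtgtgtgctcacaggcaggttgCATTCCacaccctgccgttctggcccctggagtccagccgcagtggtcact

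The first SMAD3 window lay at chr15:67098429-67098728 on the plus strand, inside a region at chr15:67096681-67099807 whose mean H3K27ac score percentile over the 4 libraries was 92.5. H3K9ac peaks covered 1287 and 1006 bp of that region with TGF-beta, against 1184 and 1402 bp with vehicle, so the treatments overlapped. None of the 3 motifs matched in this window. The second SMAD3 window, at chr15:67137771-67138070 on the plus strand, lay in a 1521 bp region at percentile 32.5 with no H3K9ac peak in any library, and it held the SMAD letters once, from base 117. ACVR1 encodes a type I receptor for activins and BMPs. Its window at chr2:157838581-157838880 on the minus strand held AP-1 letters from base 227 and SMAD letters from base 283, and H3K9ac covered 1132 and 931 bp of its region with TGF-beta, against 930 and 1064 bp with vehicle. CD59 encodes a cell surface inhibitor of complement. The CD59 window, chr11:33722678-33722977 on the minus strand, held AP-1 letters 3 times, from bases 134, 228 and 254. H3K9ac covered 1137 and 1391 bp of the CD59 region with TGF-beta, against 1088 and 963 bp with vehicle (log2 change 0.28 ± 0.09 SE, limma adjusted p = 0.207).

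LIMS1 encodes a LIM domain adaptor of focal adhesions, and its window at chr2:108588056-108588355 on the plus strand held the SMAD letters from base 39 although no SMAD3 peak touched the region. H3K9ac covered 619 and 856 bp of the 3667 bp LIMS1 region with TGF-beta and was listed at 0 in both vehicle libraries (limma adjusted p = 0.00159). H3K27ac covered 3363 and 3351 bp of it with TGF-beta, against 1204 and 952 bp with vehicle. BCAR3 encodes an adaptor of the Cas proteins in integrin signalling. The BCAR3 window, chr1:93585113-93585412 on the minus strand, held TEAD letters on both strands, from bases 19 and 250, and the nearest SMAD3 peak was 93.8 kb from its region. There H3K9ac was listed at 0 in both TGF-beta libraries, against 946 and 492 bp with vehicle (limma adjusted p = 0.0113). By the rule every printed window lay in a region with no SMAD3 peak, so where SMAD letters stood among the windows is a description. SMAD letters were absent from the SMAD3 window whose region was at percentile 92.5. They were present in the ACVR1 window, whose region was at percentile 75.6. Only the windows were searched, not the rest of the regions, and SMAD letters stood in 16.9% of all windows. A match is a description and not a binding site.

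Over all windows, AP-1 letters stood in 24.4% of the 238 windows inside SMAD3-free distal regions, in 10.2% of the 1220 windows inside stable distal regions with SMAD3 and in 7.69% of all 34789 windows. The median GC content was 48.2% in the SMAD3-free windows, against 64.3% in windows with SMAD3 and 58.7% in all windows. The GC box GGGCGG, typical of CpG-rich promoters, was in 11.8% of the SMAD3-free windows, against 54.2% with SMAD3 and 44.9% of all windows. SMAD letters were in 24.4%, 16.2% and 16.9% of these 3 sets in the same order, and TEAD letters in 17.2%, 14.0% and 14.1%. ETS letters CCGGAAG were in 3.36%, 8.85% and 10.2%, and the forkhead letters TGTTTAC in 5.04%, 3.52% and 3.42%. The sets differ in GC content and in the share of coding starts, whose part in these motif shares was not tested. Regions with a start window carried H3K9ac in all 4 libraries in 55.1% of cases (124 regions), against 22.1% of the other SMAD3-free distal regions. Among regions from 1 kb to under 2 kb the shares were 41.7% of 96 with a start window and 26.9% of 5400 without.

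The regions were small and mostly inside genes. Their median length was 849 bp, with quartiles of 558 and 1348.5 bp and a range of 152 to 19128 bp, and together they spanned 21.3 Mb. In all, 10615 (55.3%) lay inside a protein-coding gene, 4672 (24.3%) outside genes but within 50 kb of one, and 3904 (20.3%) farther away. The annotation used gives neither exons nor strand, so intron or exon is not stated. The median distance to a gene end was 31.3 kb, against 15.8 kb for stable distal regions with SMAD3. H3K27ac covered a median of 637 and 621 bp of a SMAD3-free region with TGF-beta, against 545 and 598 bp with vehicle. By score, the authors' −log10 p or q value of a peak ranked within its library, their median percentile was 58.9 and 57.9 with TGF-beta and 54.1 and 56.6 with vehicle. In stable distal regions with SMAD3 it was 83.8 and 83.5 with TGF-beta and 79.1 and 79.7 with vehicle. Only 1.34% and 1.09% (TGF-beta) and 1.19% and 1.31% (vehicle) of the SMAD3-free regions were above percentile 90, against 32.4% and 31.4% and 24.4% and 24.7% of those with SMAD3. The SMAD3-free regions nonetheless held 26.0% and 26.0% of all H3K27ac peak length with TGF-beta, against 27.5% and 27.5% with vehicle. They were thus many, short and of middle rank.

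The nearest SMAD3 peak was a median of 25.1 and 23.7 kb away in the TGF-beta SMAD3 libraries, against 38.3 and 33.6 kb in the vehicle ones, which had fewer peaks (33700 and 34413 with TGF-beta, 22451 and 25268 with vehicle). A SMAD3 peak lay within 5 kb of 21.4% and 22.1% of the regions with TGF-beta, against 14.0% and 16.3% with vehicle. At the edges of the rule, the 367 regions more than 1 and up to 1.5 kb from a gene end had H3K9ac in 48.2% and 58.0% of cases with TGF-beta, against 65.4% and 57.2% with vehicle. In the 352 regions without SMAD3 that lay more than 0.5 and up to 1 kb from one, just outside, these shares were 56.8% and 63.1% with TGF-beta and 66.5% and 61.9% with vehicle. The 1848 regions under 1 kb from a SMAD3 peak had a median score percentile of 57.5, against 74.1 in the 1743 distal regions that overlapped SMAD3 in 1 library only. Distal SMAD3-free regions called in 3 of the 4 H3K27ac libraries numbered 7156 and had a median percentile of 30.7.

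By the share of markers covered, cholangiocytes were not set apart from endothelium. H3K27ac covered 6 of 8 cholangiocyte markers in all 4 libraries, with a summed length of 39.3 and 39.4 kb with TGF-beta and 41.5 and 43.8 kb with vehicle; CFTR was at 0 and EPCAM was not covered in every library. Among markers of other cells, ALB, TTR and CYP3A4 of hepatocytes, DES and LUM of mesenchyme, and ITGAM of leukocytes were at 0. PECAM1 of endothelium had 14.1 and 13.8 kb with TGF-beta, against 13.3 and 13.2 kb with vehicle. Of the 6 mesenchymal markers 4 were covered in all 4 libraries, with a sum of 27.6 and 27.5 kb with TGF-beta, against 16.8 and 19.1 kb with vehicle, and their part in the results below was not tested. Endothelial markers (3 of 4 covered in all libraries) summed to 20.1 and 19.4 kb with TGF-beta, against 17.5 and 17.2 kb with vehicle. Hepatocyte markers (2 of 6) and leukocyte markers (3 of 6) summed to under 5 kb in each library. In a bulk culture, fewer cells with a mark and less mark per cell cannot be told apart. File headers place both acetylation libraries of TGF-beta replicate 2 on lane 8 and the remaining acetylation libraries on lane 7. All SMAD3 libraries were on lane 8. The labels number the acetylation libraries 1 and 2 and the SMAD3 libraries 4 and 5.

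H3K9ac was the measure that the rule did not use. It was present at a minority of the SMAD3-free distal regions. With TGF-beta, H3K9ac peaks overlapped 34.0% and 41.3% of the regions, and with vehicle 48.1% and 36.9%, so the treatments overlapped. In stable distal regions with SMAD3 the shares were 94.4% and 96.1% with TGF-beta and 93.5% and 90.4% with vehicle. At gene ends they were 95.7% and 96.5% with TGF-beta and 97.1% and 96.2% with vehicle. In each of the 4 libraries the share was thus lower in SMAD3-free regions than in both other sets. A two-sided exact permutation test of 2 against 2 libraries cannot give a p below 1 in 3, so no test of the treatment is given for these shares. Where H3K9ac was present it was short, with a median of 306 and 341 bp per region with TGF-beta and 351 and 327 bp with vehicle.

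The gap between the sets was wide at low and middle H3K27ac scores and closed at the highest. Below the 50th percentile of the mean H3K27ac score, H3K9ac was present at 12.1% and 17.1% of 7916 SMAD3-free regions with TGF-beta and at 25.2% and 16.0% with vehicle. In the 636 distal regions with SMAD3 of the same scores it was present at 67.3% and 74.7% with TGF-beta and 75% and 67.9% with vehicle. Between percentiles 50 and 75 the shares were 38.6% and 48.7% with TGF-beta and 56.3% and 41.7% with vehicle in SMAD3-free regions. With SMAD3 they were 90.4% and 93.7% with TGF-beta and 86.5% and 81.0% with vehicle. At percentile 90 or more, all 122 SMAD3-free regions had H3K9ac in every library. By length the gap narrowed and did not close. H3K9ac was present at 76.2% and 82.5% (TGF-beta) and 84.9% and 77.0% (vehicle) of the 2231 SMAD3-free regions of 2 kb or more, and at 19.0% and 23.9% (TGF-beta) and 31.8% and 22.7% (vehicle) of the 3697 under 500 bp. Regions with SMAD3 of 2 kb or more had H3K9ac in 98.8% and 99.4% of cases with TGF-beta, against 97.2% and 95.2% with vehicle. SMAD3 regions under 500 bp had H3K9ac in 90.7% and 92.8% of cases with TGF-beta, against 94.2% and 91.0% with vehicle.

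**Figure D1:**
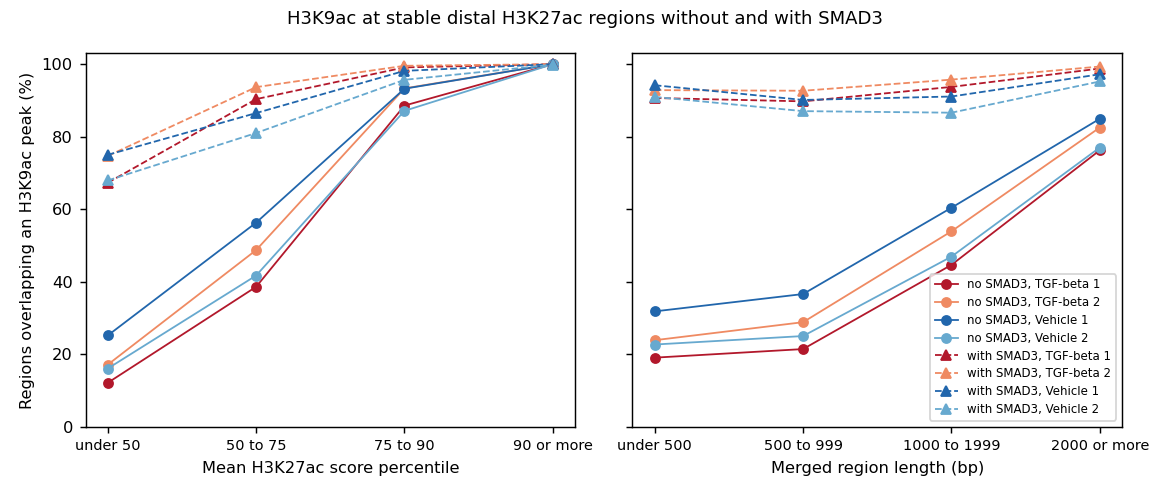
Share of stable distal H3K27ac regions that overlapped an H3K9ac peak (y axis, percent), by mean H3K27ac score percentile (left) and merged region length (right), in each TGF-beta and vehicle library. Circles with solid lines are SMAD3-free regions and triangles with dashed lines are regions with SMAD3; in every bin below percentile 75 all 4 circles lie under all 4 triangles, and the curves meet at percentile 90 or more, where the SMAD3-free share is 100%.

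H3K9ac was more frequent under 1 kb from SMAD3 than in the farther classes, which from 1 to 100 kb differed little. Under 1 kb from a SMAD3 peak, 56.0% and 64.2% of the regions had H3K9ac with TGF-beta, against 64.2% and 55.8% with vehicle. From 1 to 5 kb the shares were 33.5% and 40.7% with TGF-beta and 48.2% and 38.1% with vehicle, and from 20 to 100 kb 31.9% and 38.7% with TGF-beta and 47.0% and 34.5% with vehicle. At 100 kb or more they were 26.7% and 33.9% with TGF-beta and 40.7% and 29.7% with vehicle. The nearest and the farthest class had median lengths of 866.5 and 790 bp and median score percentiles of 57.5 and 56.2. By pattern, 4313 SMAD3-free regions (22.5%) had H3K9ac in all 4 libraries, 7677 (40.0%) in none and 7201 (37.5%) in 1 to 3. H3K9ac stood in both TGF-beta libraries and neither vehicle library at 797 regions, and in both vehicle libraries and neither TGF-beta library at 1248. Regions with H3K9ac in all 4 libraries were 1401 bp long in the median, and those with it in none 644 bp.

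The change of H3K9ac after TGF-beta was tested with limma on log2 of the H3K9ac peak length in each merged H3K27ac region plus 200 bp, over the 31334 merged regions with a mean of at least 200 bp. A log2 change on this scale understates the change of short lengths. Of the SMAD3-free regions, 5710 passed this filter, 5804 had shorter H3K9ac and 7677 had none. H3K9ac rose at 379 of the 5710 (6.64%), where 3.95% of all tested regions rose, and it fell at 651 (11.4%), where 3.63% of all tested regions fell. The other 4680 were not called at an adjusted p of 0.05. The median log2 change was -0.08, against 0.02 over all tested regions. In stable distal regions with SMAD3, H3K9ac rose at 7.23% and fell at 3.05% of 7644 tested. At gene ends it rose at 0.61% and fell at 0.93% of 15298 tested. The differences between the sets were not tested. A region covered in 1 treatment alone can pass the filter and then had to differ, so adjusted p-values of regions listed at 0 in both libraries of a treatment are a description and no support. Regions with under 200 bp in both libraries of 1 treatment also passed through the other treatment, and their p-values need the same caution. Of the called regions, no vehicle library had H3K9ac at 183 of the 379, and no TGF-beta library had it at 296 of the 651. Among the 4136 tested SMAD3-free regions with H3K9ac in all 4 libraries, 164 rose (3.97%) and 320 fell (7.74%). The matching shares over all merged regions with H3K9ac in all 4 libraries were not computed. The shares of all tested regions do not match this subset, so no excess is read from it. The treatments did not overlap, with TGF-beta higher, at 1188 tested SMAD3-free regions (20.8%, against 15.8% of all tested), and with TGF-beta lower at 2132 (37.3%, against 27.8%). In stable distal regions with SMAD3 these shares were 24.2% higher and 26.6% lower, and at gene ends 9.79% higher and 26.5% lower.

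These counts depended on the settings and on single libraries. Without centring of the libraries 111 SMAD3-free regions rose and 195 fell, and with a crossed pairing of the replicate numbers, added after seeing the data, limma called 0 in either direction (1928 at an unadjusted p under 0.05). Without Vehicle replicate 1, the library with the most H3K9ac peaks (61297), 1358 SMAD3-free regions rose and 957 fell, so the larger group changed. Without Vehicle replicate 2 the counts were 1020 higher and 1753 lower, and without TGF-beta replicate 1 they were 693 and 1143. Without TGF-beta replicate 2, which leaves lane 7 alone, 445 rose and 1612 fell. In these fits the lone library of a treatment is assumed to vary like the others. Which direction prevailed is therefore not settled by these libraries.

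H3K27ac length, which the rule held present but not equal, differed in the same direction as H3K9ac at most called regions. Both TGF-beta libraries had longer H3K27ac than both vehicle libraries at 348 of the 379 regions where H3K9ac rose (91.8%), and the median log2 ratio of H3K27ac length was 0.65. Where H3K9ac fell, both TGF-beta libraries had shorter H3K27ac at 483 of 651 (74.2%), with a median log2 ratio of -0.36. Over all 19191 regions, H3K27ac was longer in both TGF-beta libraries at 6953 (36.2%), shorter in both at 5007 (26.1%) and overlapping at 7231. It was within 2-fold at 84.1% of them, more than 2-fold longer at 1928 and more than 2-fold shorter at 1125. A SMAD3 peak lay within 5 kb of 29.0% and 26.4% of the regions where H3K9ac rose in the TGF-beta libraries, against 8.97% and 10.3% in the vehicle libraries. Where H3K9ac fell these shares were 18.9% and 20.6% with TGF-beta and 17.5% and 21.2% with vehicle. At tested regions that were not called they were 28.7% and 29.9% with TGF-beta and 20.9% and 23.01% with vehicle.

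**Figure D2:**
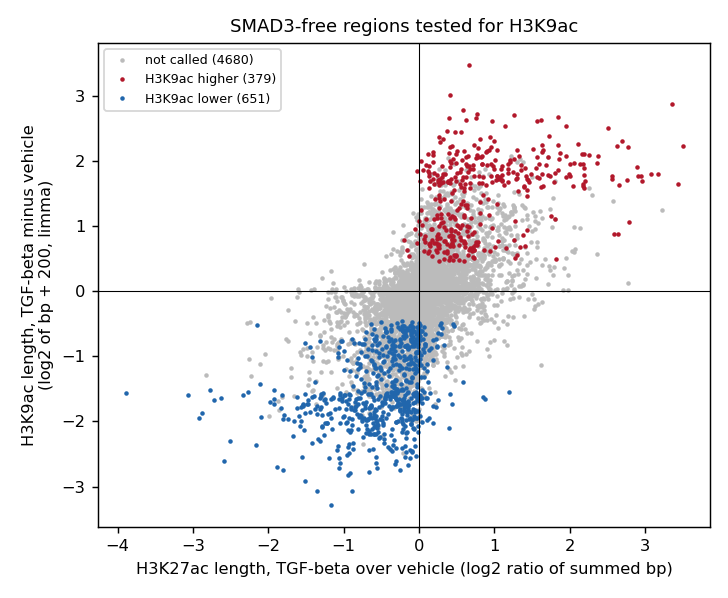
Each point is 1 of the 5710 SMAD3-free distal regions tested for H3K9ac. The x axis is the log2 ratio of H3K27ac length, TGF-beta over vehicle, and the y axis the limma log2 change of H3K9ac length plus 200 bp, TGF-beta minus vehicle; the 379 regions with higher H3K9ac lie mostly right of 0 and the 651 with lower H3K9ac mostly left of 0.

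The 8 largest called gains of H3K9ac lay in or near NEDD9, PRKCH, POMT2, PACS1, DNMBP, KANSL1, PFDN1 and RNF217. All 8, and 7 of the 8 largest losses, had H3K9ac in 1 treatment alone, so they had to differ once they passed the filter. Their adjusted p-values, here and below, are a description and no support. NEDD9 encodes a scaffold of integrin and focal adhesion signalling and is a known TGF-beta target. Its region at chr6:11207517-11215405 (7889 bp, inside the gene) had 1625 and 2411 bp of H3K9ac with TGF-beta and none in either vehicle library (limma adjusted p = 0.00139). H3K27ac covered 7562 and 7635 bp of it with TGF-beta, against 4877 and 4683 bp with vehicle. The nearest SMAD3 peak was 3.52 kb away. The 2 treatments did not overlap in either mark. PRKCH encodes protein kinase C eta, and its region at chr14:61488475-61494102 had 1387 and 1373 bp of H3K9ac with TGF-beta and none with vehicle (limma adjusted p = 0.00139). H3K27ac there was 5319 and 5494 bp with TGF-beta, against 4101 and 3998 bp with vehicle.

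POMT2, an O-mannosyltransferase of dystroglycan, had the widest H3K27ac difference of these: 4201 and 4175 bp with TGF-beta, against 503 and 314 bp with vehicle, at chr14:77303969-77308186. H3K9ac in that region was 1219 and 1245 bp with TGF-beta and absent with vehicle (limma adjusted p = 0.00139), and a SMAD3 peak ended 79 bp away. DNMBP encodes an exchange factor for CDC42 found at epithelial junctions. The DNMBP region, chr10:99964943-99967831, had 950 and 1262 bp of H3K9ac with TGF-beta and none with vehicle, at 32.4 kb from SMAD3. KANSL1, a subunit of a histone acetyltransferase complex, lay farther still from SMAD3, at 127.6 kb, with 976 and 1201 bp of H3K9ac with TGF-beta and none with vehicle. PACS1, a sorting adaptor of the trans-Golgi network, had 1038 and 1277 bp with TGF-beta and none with vehicle. PFDN1, a prefoldin subunit, had 915 and 1212 bp with TGF-beta and none with vehicle. A region 8.17 kb from RNF217, a ubiquitin ligase gene, had 769 and 1384 bp with TGF-beta and none with vehicle (limma adjusted p = 0.00536); the adjusted p was 0.00139 at DNMBP, KANSL1, PACS1 and PFDN1. Without centring of the libraries the calls at NEDD9 (adjusted p = 0.0523) and RNF217 (adjusted p = 0.111) were lost.

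The largest H3K9ac losses included a ligand subunit and a receptor. INHBB encodes the beta B subunit of activins, and the region assigned to it, 44.3 kb outside the gene at chr2:120396102-120400981, had no H3K9ac with TGF-beta, against 1656 and 1389 bp with vehicle (limma adjusted p = 0.00139). H3K27ac covered 1807 and 1792 bp of it with TGF-beta, against 4314 and 4880 bp with vehicle. ERBB2 encodes a receptor tyrosine kinase of the EGF receptor family. In the ERBB2 region at chr17:39703580-39706924 H3K9ac was absent with TGF-beta, against 2066 and 848 bp with vehicle (limma adjusted p = 0.0162). H3K27ac there was 752 and 1410 bp with TGF-beta, against 3033 and 3107 bp with vehicle.

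TNFAIP2, a gene induced by tumour necrosis factor, was the exception among the 8 in keeping some H3K9ac: 442 and 221 bp with TGF-beta, against 3491 and 3406 bp with vehicle (log2 change -2.78 ± 0.25 SE, limma adjusted p = 0.00671). SH3GL1 encodes an endophilin of endocytosis, and its region had no H3K9ac with TGF-beta, against 1836 and 1733 bp with vehicle (limma adjusted p = 0.00139). CABIN1 encodes an inhibitor of calcineurin. The CABIN1 region had none with TGF-beta, against 2114 and 1077 bp with vehicle (limma adjusted p = 0.00612). ACOT7, an acyl-CoA thioesterase, had none with TGF-beta, against 1207 and 1208 bp with vehicle (limma adjusted p = 0.00139). C10orf105 had none with TGF-beta, against 1477 and 918 bp with vehicle (limma adjusted p = 0.00271). A region 8.16 kb from the olfactory receptor gene OR5B3 had none with TGF-beta, against 1356 and 1005 bp with vehicle (limma adjusted p = 0.00139), and was the only 1 of the 16 whose H3K27ac overlapped between treatments (2058 and 2515 bp with TGF-beta, 2496 and 2967 bp with vehicle). Without centring the calls at CABIN1, ERBB2, TNFAIP2 and C10orf105 were lost, with adjusted p between 0.0816 and 0.168.

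**Figure D3:**
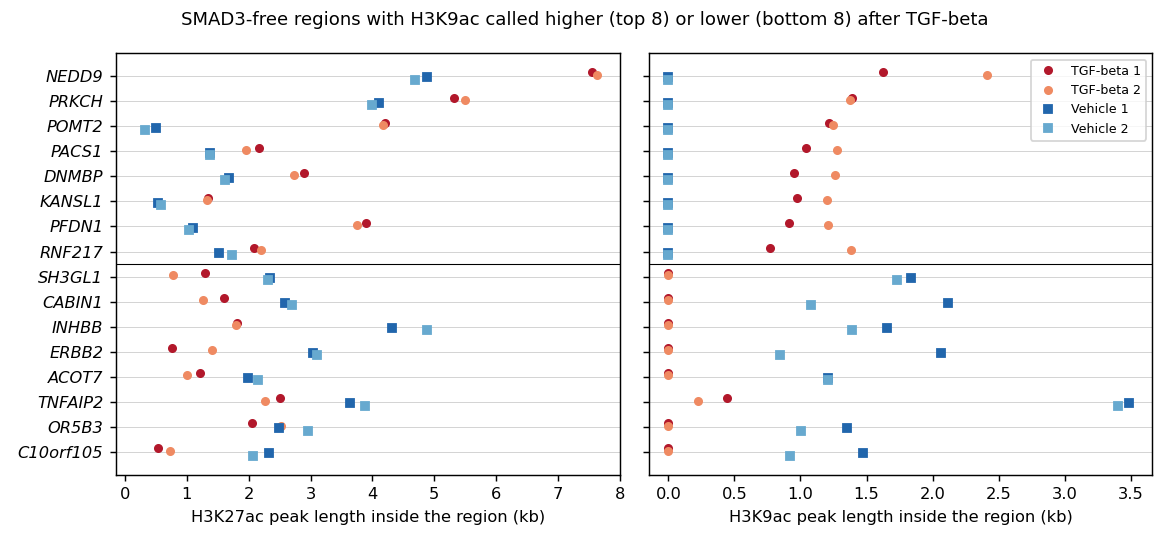
H3K27ac (left) and H3K9ac (right) peak length in kb inside the 16 SMAD3-free regions with the largest H3K9ac changes, 1 point per library, TGF-beta circles and vehicle squares. In the 8 regions above the line H3K9ac is at 0 in both vehicle libraries; in the 8 below it is at 0 in both TGF-beta libraries except at TNFAIP2, while H3K27ac is above 0 in every library.

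Differences in H3K27ac alone, given without a test since the rule used these calls, named partly other genes. SEPTIN9, a septin of the cytoskeleton, had 7920 and 8057 bp of H3K27ac in its region with TGF-beta, against 2124 and 3188 bp with vehicle. H3K9ac there rose to 951 and 1665 bp with TGF-beta, against 227 and 267 bp with vehicle (log2 change 1.75 ± 0.23 SE, limma adjusted p = 0.0207). PACSIN2 encodes a membrane-bending protein of endocytosis, and its region had 9502 and 9463 bp of H3K27ac with TGF-beta, against 5543 and 6681 bp with vehicle. The PACSIN2 region had 2698 and 3181 bp of H3K9ac with TGF-beta, against 1324 and 950 bp with vehicle (log2 change 1.27 ± 0.13 SE, limma adjusted p = 0.0112). NFIC, a nuclear factor I transcription factor, had 3572 and 3835 bp of H3K27ac with TGF-beta, against 463 and 415 bp with vehicle. A second KANSL1 region had 3472 and 3815 bp with TGF-beta, against 356 and 681 bp with vehicle, and no H3K9ac in any library.

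At the other end, PHLPP1, a phosphatase that acts on AKT, had 306 and 239 bp of H3K27ac with TGF-beta, against 4074 and 4013 bp with vehicle, and the nearest SMAD3 peak was 158.6 kb away. H3K9ac was absent there with TGF-beta, against 513 and 309 bp with vehicle (limma adjusted p = 0.0089). PTGIS encodes prostacyclin synthase, and the region 11.6 kb from it had 571 and 524 bp of H3K27ac with TGF-beta, against 3687 and 3811 bp with vehicle. H3K9ac fell there to 166 and 145 bp with TGF-beta, against 670 and 1043 bp with vehicle (log2 change -1.52 ± 0.23 SE, limma adjusted p = 0.0302). The PTGIS and PHLPP1 regions passed the filter through the vehicle libraries, so these p-values are a description. The region at PRKAG2, a regulatory subunit of AMP-activated kinase, had 710 and 890 bp with TGF-beta, against 2925 and 3999 bp with vehicle. A region 4.61 kb from SUSD1 had 467 and 225 bp with TGF-beta, against 2561 and 4208 bp with vehicle, and no H3K9ac in any library.

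The regions of highest score were not called for H3K9ac. The highest mean score percentile, 99.7, was at chr15:67048951-67051901, 13.7 kb outside SMAD3, where the nearest SMAD3 peak was 106 bp away. It had 1326 and 1410 bp of H3K9ac with TGF-beta, against 1680 and 1888 bp with vehicle (log2 change -0.31 ± 0.11 SE, limma adjusted p = 0.262). Among the first 6 were also regions at NUP155, a nuclear pore protein, SUSD1, CDK5RAP2, a centrosome protein, and KIRREL1, an adhesion protein. Log2 changes of H3K9ac over the 6 ran from -0.42 at SUSD1 to 0.21 at CDK5RAP2. The longest region, 19128 bp inside MYH9, the heavy chain of a non-muscle myosin, had 18452 and 18476 bp of H3K27ac with TGF-beta, against 17927 and 18199 bp with vehicle. H3K9ac covered 5201 and 6535 bp of it with TGF-beta, against 7651 and 5046 bp with vehicle, and was not called (limma adjusted p = 0.972). The next longest lay at DUSP1, a phosphatase of MAP kinases, TRAM2 and BIN1, and were not called either. Farthest from SMAD3 was a region at chr5:27240627-27241903, 4290 kb from the nearest peak, with 1184 and 1142 bp of H3K27ac with TGF-beta, against 750 and 899 bp with vehicle. It had 241 and 267 bp of H3K9ac with TGF-beta and none with vehicle, under the filter.

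SMAD3-free distal regions were assigned to 4998 of 19974 protein-coding genes (nearest gene within 50 kb), 1970 of which had 1 region and 231 of which had 10 or more. BCAR3 had the most, 36, beside 5 stable distal regions with SMAD3. RAD51B, a recombination repair gene, had 34 beside 13, and NAV2, a cytoskeletal regulator, 33 beside 8. CRIM1, a membrane protein that binds BMPs, had 32 and no stable distal region with SMAD3. DST, a cytoskeletal linker, had 30 beside 4, CAST, the calpain inhibitor, 25 beside 6, and PALLD, an actin-binding protein, 25 beside 9. STARD13, a GTPase-activating protein of the cytoskeleton, had 23 beside 7. Genes with 10 or more had a median length of 222.1 kb, against 24.2 kb over all protein-coding genes, so genes with many regions were long.

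At CRIM1, H3K9ac fell in 4 of the 9 tested regions and rose in none, where 11.4% of tested SMAD3-free regions and 3.63% of all tested regions fell. Of the 4, the region at chr2:36337400-36339018 was listed at 0 in both TGF-beta libraries, so its call is a description. In the 8917 bp CRIM1 region at chr2:36365786-36374702 H3K9ac was 3258 and 3421 bp with TGF-beta, against 5160 and 4860 bp with vehicle (log2 change -0.53 ± 0.08 SE, limma adjusted p = 0.028). Over the 32 CRIM1 regions it summed to 8.43 and 11.003 kb with TGF-beta, against 15.6 and 13.4 kb with vehicle, while H3K27ac summed to 50.8 and 49.3 kb with TGF-beta and 47.6 and 49.95 kb with vehicle.

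SMAD3 itself had 29 SMAD3-free regions, 25 of them inside the gene, beside 6 stable distal regions that SMAD3 occupied. The gene encodes the receptor-regulated SMAD of the pathway. Its 29 regions lay from 0.106 to 19.7 kb from the nearest SMAD3 peak. H3K9ac was present in 7 and 8 of the 29 with TGF-beta, against 12 and 10 with vehicle, and was in none of the libraries at 16. All 6 occupied regions had H3K9ac in all 4 libraries. They were 1707 to 14873 bp long, against 336 to 2075 bp for the 16 without H3K9ac, and the part of length was not tested. Of 8 SMAD3-free regions tested at SMAD3, 1 was called: at chr15:67023235-67024491, outside the gene, H3K9ac was listed at 0 with TGF-beta, against 684 and 423 bp with vehicle (limma adjusted p = 0.0058). That region passed the filter through the vehicle libraries, so its call is a description. Over all tested SMAD3-free regions 11.4% fell, and over all tested regions 3.63%. TGFB2, which encodes a TGF-beta ligand, had 24 SMAD3-free regions and 3 with SMAD3. H3K27ac at the 24 TGFB2 regions summed to 24.9 and 25.04 kb with TGF-beta, against 22.4 and 26.1 kb with vehicle, and none of the 5 tested regions was called for H3K9ac.

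CDH1 encodes E-cadherin, the cell adhesion molecule of epithelia. All 11 stable distal regions of CDH1 were SMAD3-free, and all 11 lay inside the gene. H3K9ac in them summed to 1.80 and 2.23 kb with TGF-beta, against 9.08 and 5.67 kb with vehicle. H3K27ac summed to 14.9 and 14.3 kb with TGF-beta, against 19.1 and 20.2 kb with vehicle. The 2 treatments did not overlap in either sum. Of 8 regions tested, 2 fell and 6 were not called, where 11.4% of tested SMAD3-free regions and 3.63% of all tested regions fell. At chr16:68778133-68779092 H3K9ac was listed at 0 with TGF-beta, against 521 and 481 bp with vehicle (limma adjusted p = 0.00139). That region passed the filter through the vehicle libraries, so its call is a description. At chr16:68753800-68758195 H3K9ac was 372 and 298 bp with TGF-beta, against 1499 and 1005 bp with vehicle (log2 change -1.39 ± 0.18 SE, limma adjusted p = 0.0207). The region nearest the lower-coordinate end, at chr16:68739078-68743300, had 135 and 0 bp with TGF-beta, against 2083 and 767 bp with vehicle (limma adjusted p = 0.0596), and was not called.

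**Figure D4:**
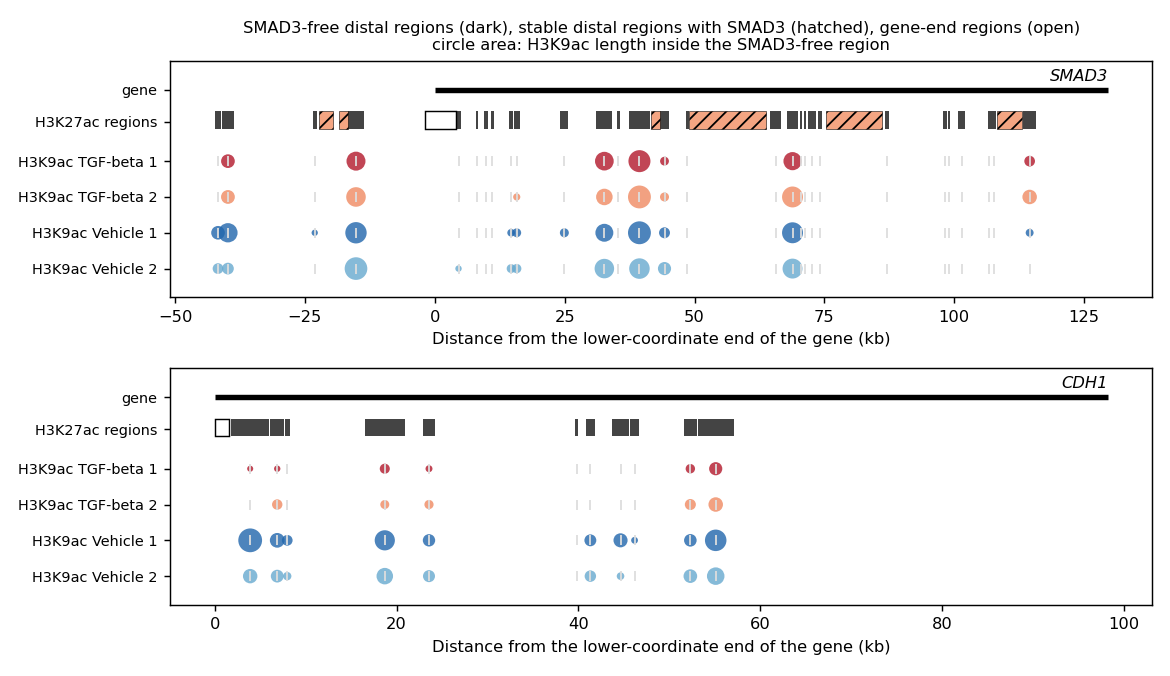
SMAD3 (top) and CDH1 (bottom) by distance from the lower-coordinate end of the gene in kb. Dark boxes are SMAD3-free distal regions, hatched boxes stable distal regions with SMAD3 and open boxes stable regions at gene ends. Below, circle area is proportional to the H3K9ac length inside each SMAD3-free region in each library. A light tick stands at every SMAD3-free region, so a tick without a circle marks no H3K9ac peak. At CDH1 the TGF-beta circles sum to 1.80 and 2.23 kb, against 9.08 and 5.67 kb with vehicle.

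Other duct genes had few such regions. KRT19, a duct keratin, had 4 and no stable distal region with SMAD3. The KRT19 region at chr17:41537042-41539974 had 0 and 174 bp of H3K9ac with TGF-beta, against 1574 and 1489 bp with vehicle (log2 change -2.63 ± 0.28 SE, limma adjusted p = 0.0115), and was the 1 region of KRT19 that was tested. This region passed the filter through the vehicle libraries, so its p-value is a description. SOX9, a transcription factor of ducts, had 2 regions, which summed to 0 bp of H3K9ac in both TGF-beta libraries, against 0.625 and 0.619 kb with vehicle; neither passed the filter. KRT7 had 2 beside 4 with SMAD3 and none was called. EPCAM and TGFBI had none, although TGFBI, a matrix protein and known TGF-beta target, had 7 stable distal regions with SMAD3. COL1A1 had 1, beside 3 with SMAD3.

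Of all stable distal regions assigned to a gene, 67.8% were SMAD3-free, and the gene lists spread around that share. It was 86.7% (52 of 60) for inflammation and NF-kB genes, 78.8% for YAP and TEAD targets, 78.1% for epithelial junctions and polarity, and 76.0% for EGF receptor ligands and signalling. It was 71.4% for cell cycle genes, 70.7% for mesenchymal, endothelial and leukocyte markers, 69.6% for integrins and cytoskeleton, 66.7% for extracellular matrix and 64.6% for biliary and duct identity. The lowest shares were 58.0% for metabolic and hepatocyte genes, 57.9% for TGF-beta and SMAD targets, 54.2% for epithelial to mesenchymal transition, 50.7% for AP-1 and immediate early genes and 48.1% for housekeeping genes. These are counts without a test, and lists differ in gene length and in the number of regions per gene.

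**Figure D5:**
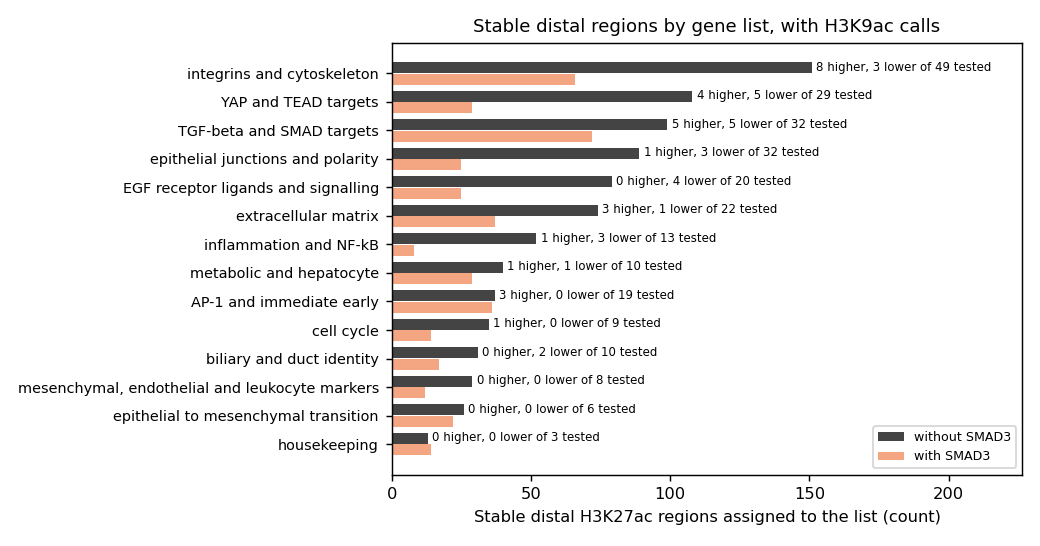
Number of stable distal H3K27ac regions assigned to the genes of 14 lists (x axis, count), without SMAD3 in dark bars and with SMAD3 in light bars; the text at each dark bar gives how many of its tested regions rose or fell for H3K9ac. Integrins and cytoskeleton hold the most SMAD3-free regions, 151 beside 66 with SMAD3, and inflammation and NF-kB has 52 beside 8.

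H3K9ac calls within the lists are counts. They include regions that passed the filter through 1 treatment, and the p-values of those are a description. Of all tested SMAD3-free regions 6.64% were higher and 11.4% lower, against 3.95% and 3.63% of all tested regions. Among TGF-beta and SMAD targets, 5 of 32 tested SMAD3-free regions rose and 5 fell. NEDD9, with 15 regions, had both. Its region at chr6:11318652-11320246, 64 bp from a SMAD3 peak, had 646 and 587 bp with TGF-beta and none with vehicle (limma adjusted p = 0.00146). Another, at chr6:11193827-11197206, had 172 and 0 bp with TGF-beta, against 1625 and 1093 bp with vehicle (log2 change -2.46 ± 0.37 SE, limma adjusted p = 0.0296). TGFBR2, the type II receptor, also had both. Its region at chr3:30688422-30690251 rose to 482 and 654 bp with TGF-beta, against 157 and 0 bp with vehicle (log2 change 1.55 ± 0.27 SE, limma adjusted p = 0.0454). The TGFBR2 region at chr3:30626148-30627640 fell to 163 and 165 bp with TGF-beta, against 596 and 483 bp with vehicle (log2 change -0.99 ± 0.09 SE, limma adjusted p = 0.0073). Each of these NEDD9 and TGFBR2 regions had under 200 bp in both libraries of 1 treatment and passed the filter through the other. Their p-values and directions are therefore a description.

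Among integrin and cytoskeleton genes 8 of 49 tested regions rose and 3 fell. TNS3, a tensin of focal adhesions, had a region with 649 and 644 bp of H3K9ac with TGF-beta and none with vehicle (limma adjusted p = 0.00139). PALLD had 1 region higher, with 858 and 994 bp with TGF-beta, against 310 and 392 bp with vehicle (log2 change 1.06 ± 0.13 SE, limma adjusted p = 0.0182). Of AP-1 and immediate early genes 3 of 19 rose and none fell, 2 of them at IER3, an immediate early gene of stress responses. Of extracellular matrix genes 3 of 22 rose and 1 fell, and COL5A2, a fibrillar collagen gene, had a region with 300 and 731 bp with TGF-beta and none with vehicle (limma adjusted p = 0.0337).

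For the EGF receptor list none of 20 rose and 4 fell, among them a region of ERRFI1, a feedback inhibitor of the receptor, with 216 and 343 bp with TGF-beta and 1092 and 1061 bp with vehicle (log2 change -1.39 ± 0.13 SE, limma adjusted p = 0.00674). Of inflammation and NF-kB genes 1 of 13 rose and 3 fell; BIRC3, an inhibitor of apoptosis, had 214 and 260 bp with TGF-beta, against 1411 and 1149 bp with vehicle (log2 change -1.72 ± 0.09 SE, limma adjusted p = 0.00159). Of epithelial junction genes 1 of 32 rose, at TJP1, the tight junction scaffold, and 3 fell, 2 of them at CDH1. The TJP1 region had 1163 and 1463 bp with TGF-beta, against 498 and 513 bp with vehicle (log2 change 1.12 ± 0.11 SE, limma adjusted p = 0.00839). Of biliary genes none of 10 rose and 2 fell. Of YAP and TEAD targets 4 of 29 rose and 5 fell, 4 of these at CRIM1. Of cell cycle genes 1 of 9 rose, at CDKN2B, a cyclin-dependent kinase inhibitor that TGF-beta is known to induce, with 676 and 740 bp with TGF-beta and 303 and 272 bp with vehicle (log2 change 0.93 ± 0.08 SE, limma adjusted p = 0.0051). Of metabolic genes 1 of 10 rose, at the glucose transporter gene SLC2A1, and 1 fell. None of the 6 tested regions of transition genes, 8 of other cell types' markers and 3 of housekeeping genes was called. Median log2 changes ran from -0.65 for inflammation to 0.20 for other cell types' markers. The median was -0.58 for junctions and 0.17 for TGF-beta targets and for extracellular matrix. It was -0.08 over all tested SMAD3-free regions and 0.02 over all tested regions.

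Of 1558 annotated miRNA hairpins, 15 lay whole inside a SMAD3-free distal region. MIR30A is the hairpin of miR-30a, and the miR-30 family is known to restrain genes of epithelial to mesenchymal transition. It lay on the minus strand at chr6:71403551-71403621, and its RefSeq sequence is shown with the mature parts in capitals, then the 2 mature products with seeds (bases 2 to 8) in capitals.
MIR30A hairpin: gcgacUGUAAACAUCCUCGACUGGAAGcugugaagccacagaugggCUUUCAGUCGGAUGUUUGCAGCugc
hsa-miR-30a-5p: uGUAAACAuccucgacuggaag
hsa-miR-30a-3p: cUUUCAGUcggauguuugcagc
H3K9ac covered 1452 and 1579 bp of its 2981 bp region with TGF-beta, against 1781 and 1573 bp with vehicle (log2 change -0.10 ± 0.08 SE, limma adjusted p = 0.765). H3K27ac covered 2926 and 2961 bp with TGF-beta, against 2757 and 2958 bp with vehicle, and the nearest SMAD3 peak was 14.0 kb away. Of the other 14 hairpins, 4 lay in regions with H3K9ac in all 4 libraries, and none of the 15 was in a region called for H3K9ac.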

How the data were processed

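ChIP-seq of the 3 targets was done in H69 cells, per the labels' protocols. BWA, Picard, MACS2 and bedtools were used with hg38, per the submitters' processing notes. For tool versions, the peak cutoff and any control, the sources used here give nothing. The authors' deposited peak lists, 1 per library, carry a score that is −log10 of a p or q value; it served here only to rank peaks within a library. The lists hold no counts, so read depth is unknown. Input libraries, 4 in number, were left out.

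Peaks of chromosomes 1 to 22 and X that shared 1 bp or more were merged. Genes were the 19974 protein-coding genes of RefSeq (GRCh38.p14). H3K9ac length was fitted with limma 3.58.1 in R 4.3.3, each library centred on its median over regions covered in all 4 libraries, with Benjamini-Hochberg adjustment at 0.05 over 31334 regions; the fit was tested on simulated data. Python 3.11.15 did the rest. The regions, gene lists and tests were chosen with earlier results of these data known.

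Named regions were the 8 with the largest called H3K9ac change in each direction, the 12 genes with most regions, the 6 highest scores, the 4 longest, the 5 largest H3K27ac differences in each direction, up to 3 genes per list, the 3 farthest from SMAD3 (1 described) and 9 fixed genes. Regions on chromosome 8 were counted and not named, and some genes under the rule are not reported here. The printed windows, LIMS1, ACVR1, CD59, MIR30A and the groups under other observations were chosen after values were seen. Motifs had been planned for region centres, which need a genome; start windows took their place. Alternatives were the pseudocount, filter, centring, equal peak numbers, replicate block, limma options, other rule thresholds and leaving out each library.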

Additional observations from a re-analysis of the deposited data

How the results depend on the processing

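The number of SMAD3-free distal regions, 19191, ranged from 16275 (H3K27ac scores of at least 5) to 22694 over the alternatives. H3K9ac shares moved by less than the spread between replicates except where 0.5 or more of a region had to lie inside H3K9ac peaks, which gave means of 7.83% with TGF-beta and 11.4% with vehicle, against 37.6% and 42.5%. Counts of H3K9ac calls, 379 higher and 651 lower, moved more. A pseudocount of 1000 bp gave 590 higher, no filter 796 higher and 1200 lower, a filter at 500 bp 200 higher, and no centring 111 higher and 195 lower. Leaving out 1 H3K9ac library gave 445 to 1358 higher and 957 to 1753 lower. The labels do not say whether libraries of the same replicate number are paired. Deviations of same-numbered libraries correlated at r = -0.16 over 31334 regions, which cannot settle this with 2 libraries per group. A replicate block gave 868 higher and 1311 lower. A crossed pairing, added after seeing the data, gave 0 higher and 0 lower with limma, and 1928 regions with an unadjusted p under 0.05. The cause of these moves was not tested, beyond the fewer or more regions that a filter leaves. Of 192 refits of the 16 regions with the largest changes, which leave out the crossed pairing, 186 stayed called, 6 did not and none turned its direction; under the crossed pairing none of the 16 was called. The 16 were chosen for their large changes, and all but TNFAIP2 were listed at 0 in both libraries of 1 treatment. Their direction could therefore hardly turn, so these refits are a description and no support. Read depth is unknown, so a peak that is missing may lie below the caller's limit.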

Other observations

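The SMAD3-free distal regions lay in groups. With gaps of up to 12.5 kb joined, they formed 9701 groups, of which 4851 held a single region and 580 held 5 or more. One, of 18 regions over 67.8 kb on chromosome 12, was assigned to no protein-coding gene, and 3 of its regions had H3K9ac in all 4 libraries. Groups of 16 lay at SUSD1, TGFB2, MYH9 with TXN2, and CAV2, a caveolin; at CAV2, 1 of the 16 had H3K9ac in all 4 libraries, against 7 of 16 at SUSD1.

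Chromosomes differed in the share of stable distal regions that were SMAD3-free. It was lowest on chromosome 19, at 43.5% (438 regions beside 568 with SMAD3), and 57.7% on chromosome 17. It was highest on chromosome 4, at 78.2% (862 beside 241), and 77.3% on chromosome 13. No test was made of these shares.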
